A study of Homo sapiens with 32 samples.

Results

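The genes described here are 39 known androgen-regulated and prostate secretory genes, taken by name, not by their values, out of the 29744 genes of the deposited table. They were followed in 2 human prostate cancer lines, LNCaP, an androgen-sensitive line from a lymph node metastasis, and its derivative C4-2B, which grows without testicular androgen. In each line the cells received a control siRNA (siCTRL) or siRNA against MOCOS (siMOCOS), and then vehicle or thapsigargin (TG), which blocks the SERCA calcium pump and causes endoplasmic reticulum (ER) stress. MOCOS is the sulfurase of the molybdenum cofactor used by xanthine dehydrogenase and aldehyde oxidase. That gave 8 groups of 4 polyA RNA libraries, 32 in all, described by the submitters as biological replicates. All cells were kept in RPMI medium with fetal bovine serum, antibiotics and glutamine, and the labels name no androgen or antiandrogen. How much TG was given, and for how long, is not stated in the labels used here. The labels list 2 siRNAs against MOCOS, but the table numbers the knockdown columns of a group 1 to 4 without naming the siRNA, so the 4 columns were used as 1 group.

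Androgens are steroid hormones that switch on the genes of the secreting luminal cell of the prostate, through DNA sequences called androgen response elements and with the help of factors such as FOXA1 and HOXB13. Genes they induce include the kallikrein proteases of seminal fluid, surface proteins used as imaging and therapy targets, and feedback genes such as FKBP5.

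Total counts per library ran from 7507226 to 27088570. MOCOS, the targeted gene, was checked first and is given in CPM, the usual depth-normalised count with TMM factors within a line, the unit of every level below. In C4-2B it stood at 34.1, 35.8, 31.1 and 31.1 CPM in the siCTRL libraries and at 2.37, 2.97, 4.12 and 4.84 in the siMOCOS libraries. With TG the same groups held 94.02, 96.4, 89.5 and 94.4 CPM and 12.3, 11.3, 19.5 and 19.8 CPM. In LNCaP the siCTRL libraries held 24.1, 22.9, 22.8 and 22.6 CPM against 3.79, 3.32, 3.26 and 3.67, and with TG 87.1, 88.7, 95.6 and 94.4 against 9.45, 11.9, 15.5 and 18.5. No knockdown library reached a control of its line and drug. The 10 luminal prostate epithelium markers were all detected in both lines, and of the 10 basal and mesenchymal markers KRT5, KRT15, TP63, CDH2 and ZEB2 were at 0 in every siCTRL library without TG. The latter list still summed to 234.7 to 451 CPM in C4-2B and 367 to 439 CPM in LNCaP siCTRL libraries, nearly all from the matrix protein FN1, at 214 to 434 CPM and 361 to 435 CPM, and from VIM. With TG, all 10 ER stress marker genes rose in the siCTRL cells of each line. In 4 libraries the genes' departure from the group mean followed GC content, with a rank correlation across genes of -0.643 in C4-2B siCTRL replicate 1, 0.53 in C4-2B siCTRL replicate 4, -0.536 in C4-2B siMOCOS TG column 3 and 0.506 in LNCaP siCTRL TG replicate 2. These are the libraries past a cutoff of 0.5. Others fell short of it, among them C4-2B siMOCOS TG column 2 at 0.493 and LNCaP siMOCOS column 1 at -0.441. Counts of members are also given without the 4 libraries past the cutoff, although the rest are not free of such trends.

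MSMB, STEAP4 and PCA3 were too low to be tested in either line, with group means of at most 0.711, 0.349 and 0.300 CPM. MSMB encodes the seminal fluid protein beta-microseminoprotein, STEAP4 a metalloreductase and PCA3 a prostate noncoding RNA used as a urine marker. The remaining 36 members passed the filter on low counts in both lines. A member was called higher or lower at an adjusted p under 0.05 in edgeR's quasi-likelihood test, adjusted over all genes by the Benjamini-Hochberg procedure, and every adjusted p and standard error (SE) of a gene below comes from that test.

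With TG, siCTRL cells of both lines lost RNA of most kallikreins, of TMPRSS2 and of the androgen feedback genes, while prostatic acid phosphatase rose. In C4-2B, 17 of the 36 members were called lower and 5 higher, where 19.3% of all genes tested were called lower and 21.2% higher. OR51E1 among the 17 and OR51E2 among the 5 passed the filter on low counts only through the libraries of the drug condition where they were high. In LNCaP, 19 were called lower and 4 higher, against 25.1% and 24.6% of all genes. NNMT among the 19 passed the filter only through libraries without TG, where it was high. The members' share of lower calls was above that of all genes in both lines, and their share of higher calls below it. The median log2 change of the members was -0.52 in C4-2B, where the median gene changed by -0.01, and -0.61 in LNCaP. Without the GC-linked libraries the counts were 15 lower and 4 higher in C4-2B, with TMEFF2, PART1 and ABTB2 no longer called, and 18 lower and 6 higher in LNCaP. Together the members made up 0.547 to 0.564% of the counts of a C4-2B siCTRL library and 0.460 to 0.466% with TG, and 0.839 to 0.876% and 0.598 to 0.639% in LNCaP. Fewer cells of a kind and less RNA per cell cannot be told apart in such bulk samples.

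**Figure D1:**
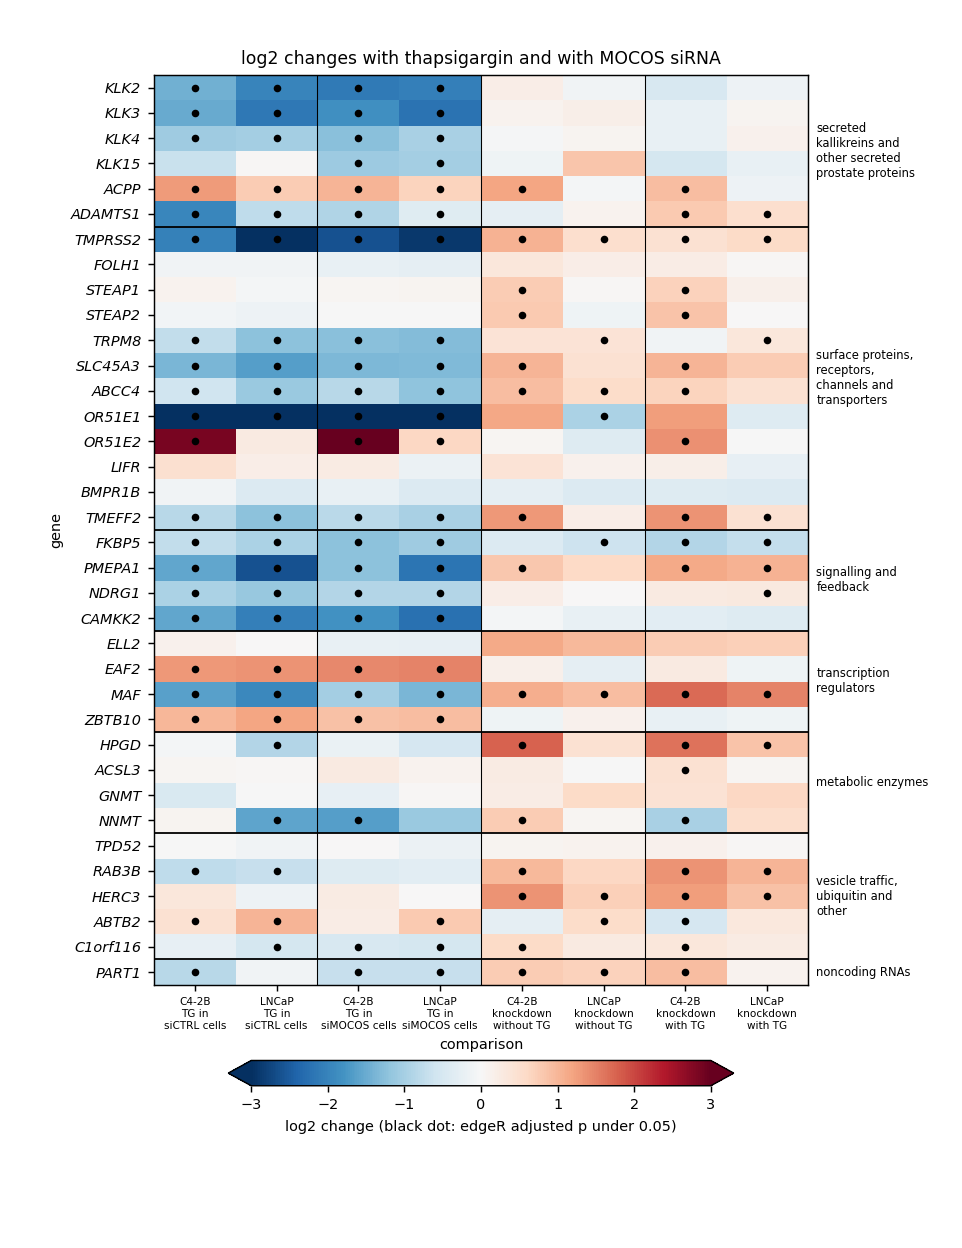
Log2 change of the 36 tested members (rows, ordered by role) in the TG and knockdown comparisons of each line (columns); colour gives the fitted change and a dot marks an adjusted p under 0.05. KLK2, KLK3, KLK4, TMPRSS2 and FKBP5 are lower in all TG columns, and HERC3 and MAF are higher in all knockdown columns.

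In both lines 16 members were called lower and 4 higher, and 11 were called in neither. Of the 13458 genes tested in both lines, 16.1% were called lower and 17.3% higher in both. The secreted proteins are described first.

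The kallikrein genes KLK3, KLK2 and KLK4 lie close together on chromosome 19 of hg38, KLK3 at 50854915 to 50860764 and KLK2 at 50861568 to 50880567 on the plus strand and KLK4 at 50906352 to 50910738 on the minus strand. Their upstream sequences are shown because the 3 genes fell together while only KLK3 and KLK2 hold a match to an androgen response element there. The sequences are the 250 bases before the start site, from the RefSeq promoter windows of GRCh38.p14, 5′ to 3′ on the gene's strand, with the matched site in capitals. The start site used for KLK2 lies inside its annotated span, and for KLK4 the nearer of its windows is shown.
KLK3 (chr19:50854665-50854914, plus strand): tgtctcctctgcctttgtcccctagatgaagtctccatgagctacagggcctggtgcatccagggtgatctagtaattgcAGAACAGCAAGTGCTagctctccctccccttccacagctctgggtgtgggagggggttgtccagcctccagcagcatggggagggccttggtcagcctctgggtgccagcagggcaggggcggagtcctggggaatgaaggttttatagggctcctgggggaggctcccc
KLK2 (chr19:50873189-50873438, plus strand): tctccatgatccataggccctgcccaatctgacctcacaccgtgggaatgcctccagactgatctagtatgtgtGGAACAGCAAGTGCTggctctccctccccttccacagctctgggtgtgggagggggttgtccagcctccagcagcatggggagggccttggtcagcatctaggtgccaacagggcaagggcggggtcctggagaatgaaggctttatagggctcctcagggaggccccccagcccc
KLK4 (chr19:50910739-50910988, minus strand): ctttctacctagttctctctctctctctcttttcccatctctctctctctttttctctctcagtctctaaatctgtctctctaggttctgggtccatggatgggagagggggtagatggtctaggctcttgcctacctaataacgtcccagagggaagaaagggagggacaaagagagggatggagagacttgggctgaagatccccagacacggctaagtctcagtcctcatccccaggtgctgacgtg
The 15-base site begins 170 bases before the start of KLK3 and 176 bases before that of KLK2. It differs between them by 1 substitution, A1G, counted from 1 at the 5′ end of the site with the KLK3 base first. From the site to the start of KLK3, 158 of 170 bases, or 92.9%, were the same in KLK2 with no gap. In windows of 250 bases before to 50 after the start, which were at hand for 29 of the 39 members, the androgen response hexamer AGAACA, read on both strands, was in 5 members: KLK3, TRPM8, LIFR, FKBP5 and PMEPA1. It was in 12.5% of the 48 windows of members and in 14.8% of all 35116 windows, a slightly lower share among members. A full androgen response element with mismatches allowed, which can overlap the hexamer, was in KLK2, KLK3 and GNMT, or 6.25% of the members' windows against 2.18% of all. That is 3 of 48 windows, and the KLK2 and KLK3 sites lie in near copies of 1 sequence, so this share says little about the members. The strict full element, the ER stress element and the ATF4 element were in no member's window. They were in only 0.00285%, 0.0769% and 3.62% of all windows, so their absence from 48 windows says little about the members. A match describes letters and not binding, and no match says only that the letters are not in this window.

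KLK3 encodes prostate-specific antigen, the protease measured in blood to follow prostate cancer. In C4-2B its level was 108, 83.9, 134 and 132 CPM in the siCTRL libraries and 41.7, 49.4, 31.7 and 38.1 CPM with TG. In LNCaP it was 1409, 1677, 1494 and 1295 CPM and then 349.6, 365, 347 and 277 CPM. The groups did not overlap in either line. KLK3 fell by 1.51 on the log2 scale in C4-2B (SE 0.21, adjusted p = 2.81e-05) and by 2.13 in LNCaP (SE 0.15, adjusted p = 4.79e-09). KLK2 encodes the related protease that can activate prostate-specific antigen. It went from 89.9, 79.5, 132 and 137 CPM to 37.1, 39.6, 51.1 and 34.4 CPM in C4-2B. The LNCaP libraries went from 102, 117, 124 and 116.1 CPM to 35.5, 33.0, 29.5 and 18.4 CPM. Again the highest TG library lay below the lowest control, and KLK2 fell 2.71-fold (adjusted p = 0.0014) and 3.96-fold (adjusted p = 1.18e-06). Of the 31-base words in the transcripts of KLK2 and KLK3, 1.84% and 1.22% also occur in other genes.

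KLK4, a protease also known from enamel formation, was more variable. In C4-2B siCTRL libraries it stood at 119, 143, 229.8 and 247 CPM, and with TG at 101, 101, 64.5 and 86.6 CPM. LNCaP cells went from 129.6, 164, 162 and 136 CPM to 78.2, 82.2, 65.0 and 64.2 CPM. The groups were separate in both lines, and KLK4 fell by 1.07 in C4-2B (SE 0.32, adjusted p = 0.0141) and by 1.03 in LNCaP (SE 0.16, adjusted p = 4.04e-05) on the log2 scale. The C4-2B call was lost when siCTRL replicate 4 alone was left out (adjusted p = 0.0611). KLK15, a low kallikrein, was not called in either line, with log2 changes of -0.67 in C4-2B (adjusted p = 0.0651) against 0.02 for LNCaP (adjusted p = 0.964).

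ACPP, the gene of prostatic acid phosphatase (listed as ACP3 in newer annotations), moved the other way. In C4-2B its siCTRL libraries held 21.6, 19.1, 17.7 and 17.8 CPM and the TG libraries 44.0, 46.8, 54.2 and 41.1 CPM. In LNCaP they held 143, 132, 137 and 186 CPM and 285, 210.2, 241 and 274 CPM. Every TG library was above every control of its line, and ACPP rose 2.44-fold in C4-2B (adjusted p = 9.86e-05) and 1.69-fold in LNCaP (adjusted p = 0.000927). ADAMTS1, a secreted metalloproteinase that cleaves proteoglycans, fell in both lines. It went from 264, 291, 245 and 223 CPM to 62.4, 61.98, 77.2 and 63.9 CPM in C4-2B. In LNCaP it went from 364, 337, 345 and 282 CPM to 194, 174, 199 and 215 CPM, a fall with no overlap of groups, as in C4-2B. The log2 changes were -1.95 (SE 0.13, adjusted p = 1.04e-08) and -0.76 (SE 0.11, adjusted p = 2.55e-05).

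**Figure D2:**
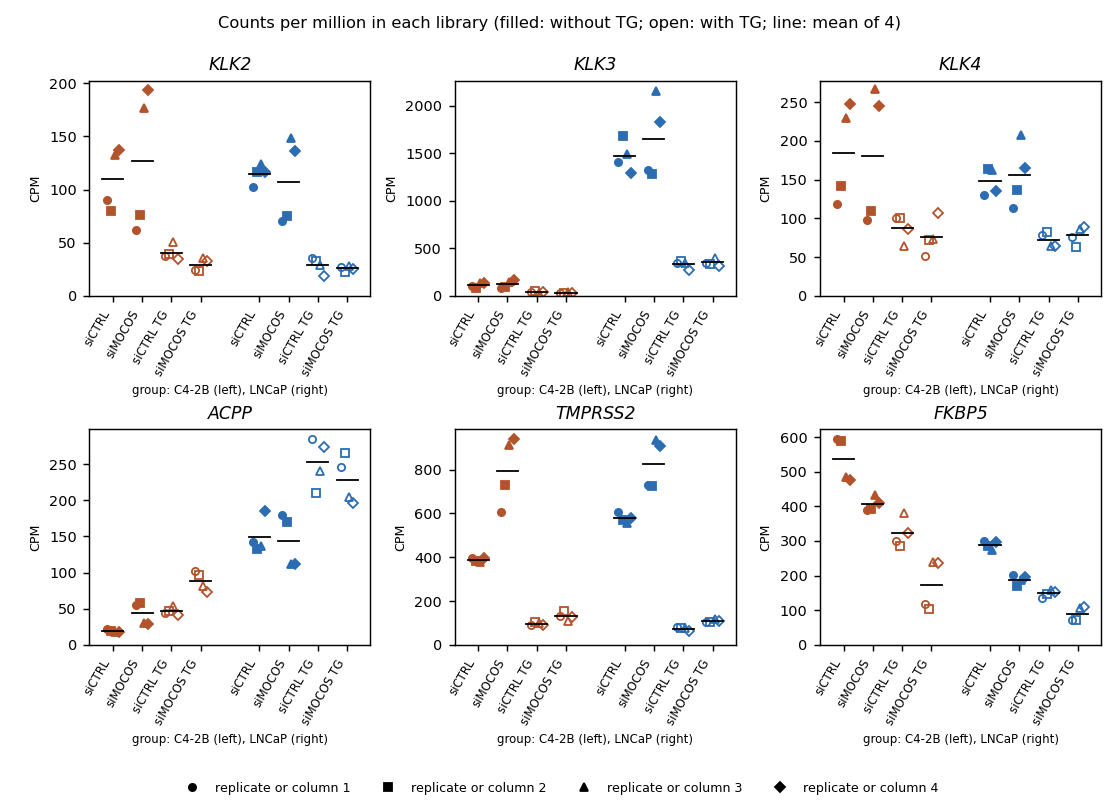
Levels of KLK2, KLK3, KLK4, ACPP, TMPRSS2 and FKBP5 in each library, in CPM on linear axes, by line, siRNA and drug; points are libraries. In siCTRL cells TG libraries lie below the controls for all but ACPP, in C4-2B siMOCOS cells KLK4 overlaps (up to 107.4 CPM with TG and down to 98.2 CPM without), and KLK3 reaches 1677 CPM in LNCaP siCTRL against 134 CPM in C4-2B siCTRL.

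Among the 12 tested surface proteins, receptors, channels and transporters, 6 were called lower with TG in each line, and 1 was called higher in C4-2B and none in LNCaP by edgeR. TMPRSS2, on chromosome 21 at 41464551 to 41531116, encodes a membrane serine protease and is the usual partner of ERG gene fusions. In C4-2B it went from 397, 383, 379.8 and 396 CPM to 88.9, 102, 98.9 and 90.2 CPM. The LNCaP libraries went from 607, 568, 555 and 580.0 CPM to 80.4, 75.1, 77.1 and 61.1 CPM. The gap between groups was many times the spread within them, and the 4.09-fold fall of TMPRSS2 in C4-2B had a log2 value of -2.03 (SE 0.14, adjusted p = 1.69e-08) and the 7.87-fold fall in LNCaP one of -2.98 (SE 0.11, adjusted p = 2.21e-12). SLC45A3, which encodes the prostate membrane transporter prostein, went from 50.9, 77.5, 56.8 and 62.1 CPM to 20.9, 25.1, 31.996 and 17.6 CPM in C4-2B. LNCaP cells went from 101, 121, 106 and 127 CPM to 38.3, 38.9, 37.7 and 30.8 CPM. It fell in both lines without overlap, by 1.37 (SE 0.33, adjusted p = 0.00309) and 1.65 (SE 0.34, adjusted p = 0.000645) on the log2 scale.

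TRPM8, a cold-sensing calcium channel, fell from 14.6 ± 1.15 to 8.81 ± 0.936 CPM (SD, n = 4) in C4-2B and from 31.02 ± 3.16 to 13.3 ± 1.89 CPM in LNCaP. ABCC4, an exporter of organic anions and prostaglandins, fell from 177 ± 19.9 to 117 ± 17.0 CPM and from 383 ± 21.6 to 177 ± 19.7 CPM. Its C4-2B call was lost without siCTRL TG replicate 2 (adjusted p = 0.0501). TMEFF2, a transmembrane protein with follistatin and EGF-like domains, went from 11.1, 7.003, 9.34 and 8.89 CPM to 5.45, 5.64, 3.84 and 5.44 CPM in C4-2B, a fall with an adjusted p of 0.0217. That call was lost without siCTRL replicate 1 (adjusted p = 0.0647) or without TG replicate 3 (adjusted p = 0.0650). In LNCaP it went from 188, 193, 196 and 201 CPM to 75.4, 89.6, 85.7 and 80.8 CPM, a fall of 1.23 on the log2 scale (SE 0.10, adjusted p = 3.81e-08).

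The olfactory receptors OR51E1 and OR51E2, both known from prostate tissue, parted. OR51E1 stood at 47.2, 41.8, 42.8 and 63.3 CPM in LNCaP siCTRL libraries and at 2.601, 2.70, 2.39 and 2.81 CPM with TG. That was an 18.5-fold fall with no overlap (log2 -4.21, SE 0.23, adjusted p = 2.54e-10). In C4-2B it was near the limit of detection, at 0.814, 0.975, 0.542 and 0.912 CPM, and at 0.0665, 0.0455, 0.104 and 0 CPM with TG. The call there was lower (adjusted p = 0.000758), again for a gene that passed the filter only through the libraries where it was high, and its fitted fold depends on the prior count. OR51E2 in C4-2B stood at 0.349, 0, 0.203 and 0 CPM without TG and at 1.197, 1.00, 1.25 and 1.22 CPM with it. It was called higher (adjusted p = 0.00139), but it passed the filter only through libraries with TG, which favoured such a call, so this is a description. In LNCaP OR51E2 was at 122, 113, 117 and 172 CPM and at 176, 134, 133 and 182 CPM with TG, overlapping groups with a log2 change of 0.26 (adjusted p = 0.135).

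No call was made in either line for FOLH1, STEAP1, STEAP2, LIFR or BMPR1B. FOLH1 encodes prostate-specific membrane antigen, the target of PSMA imaging. Its C4-2B libraries held 1213, 926, 970.1 and 956 CPM without TG and 930.4, 1007, 844 and 980.0 CPM with it. In LNCaP they held 1537, 1225, 1223 and 1126 CPM and 1051, 1225, 1294 and 1201 CPM. The groups overlapped, and the 95% interval of the log2 change was -0.44 to 0.22 in C4-2B and -0.40 to 0.20 in LNCaP. Of the 31-base words of FOLH1 transcripts, 38.2% occur in FOLH1B, and 33.5% of those of STEAP1 in STEAP1B, so reads of these pairs could be split by the counting. STEAP2, a metalloreductase, had intervals of -0.38 to 0.20 and -0.40 to 0.10. The cytokine receptor gene LIFR had log2 changes of 0.48 (adjusted p = 0.0676) and 0.20 (adjusted p = 0.244), and BMPR1B, a bone morphogenetic protein receptor, -0.11 and -0.40.

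All 4 signalling and feedback members were called lower in both lines. FKBP5, a cochaperone of the HSP90 complexes that hold steroid receptors, lies on chromosome 6 at 35573585 to 35728583. In C4-2B it went from 596, 589, 484 and 476 CPM to 299.8, 286, 381 and 322 CPM. The LNCaP libraries went from 299, 286, 274 and 297 CPM to 135, 146, 159 and 154 CPM. Both falls were without overlap, 1.66-fold (adjusted p = 0.0126) and 1.95-fold (adjusted p = 6.69e-06). PMEPA1, a membrane adaptor that binds NEDD4 ubiquitin ligases and restrains TGF-beta signalling, went from 61.4, 75.4, 63.9 and 57.9 CPM to 22.1, 19.6, 24.3 and 22.3 CPM in C4-2B. LNCaP cells went from 67.2, 72.7, 62.3 and 62.4 CPM to 14.01, 11.8, 10.4 and 7.11 CPM, so it fell 2.93-fold (adjusted p = 5.62e-05) and 6.16-fold (adjusted p = 7.75e-08).

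CAMKK2, the calcium and calmodulin dependent kinase upstream of AMPK, was the other strongly lowered signalling gene. Its C4-2B libraries went from 169, 193, 150.1 and 161 CPM to 45.4, 51.6, 76.6 and 53.3 CPM. Its LNCaP libraries went from 179.6, 167, 166 and 159 CPM to 38.6, 39.7, 42.3 and 41.0 CPM. No TG library came near a control, and the falls were 2.97-fold (adjusted p = 1.94e-05) and 4.16-fold (adjusted p = 1.66e-06). NDRG1, a cytoplasmic differentiation and stress gene, went from 171, 229, 233 and 233 CPM to 120.5, 106, 128 and 95.3 CPM in C4-2B. In LNCaP it went from 77.5, 107, 93.8 and 92.2 CPM to 44.1, 42.6, 41.3 and 40.4 CPM. It fell in both lines without overlap, 1.93-fold (adjusted p = 1.69e-05) and 2.2-fold (adjusted p = 5.56e-08).

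The transcription regulators split. MAF, a basic leucine zipper factor, went from 73.4, 74.0, 66.1 and 73.5 CPM to 23.5, 19.1, 26.6 and 23.8 CPM in C4-2B. The LNCaP libraries went from 41.0, 43.1, 35.9 and 32.2 CPM to 9.98, 11.02, 8.61 and 10.3 CPM. The groups were far apart, and MAF fell by 1.63 (SE 0.17, adjusted p = 1.7e-06) and 1.93 (SE 0.15, adjusted p = 1.29e-08) on the log2 scale. EAF2, a partner of the elongation factor ELL, rose from 3.18 ± 0.888 to 7.97 ± 1.05 CPM and from 2.05 ± 0.463 to 5.22 ± 0.634 CPM. ZBTB10, a zinc finger repressor, rose from 229.7 ± 38.4 to 455 ± 82.3 CPM and from 148 ± 13.3 to 337 ± 28.8 CPM. ELL2, an elongation factor related to ELL, was not called, with log2 changes of 0.13 (SE 0.55) and 0.01 (SE 0.47).

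Of the 4 metabolic enzymes, 2 were called lower in LNCaP with TG. HPGD, which breaks down prostaglandins, was called lower in LNCaP (3.39 ± 0.554 to 1.82 ± 0.254 CPM, adjusted p = 0.00283) and not in C4-2B (log2 -0.07, adjusted p = 0.879). NNMT, a nicotinamide methyltransferase, was called lower in LNCaP at 0.913, 0.452, 0.974 and 1.15 CPM against 0.0839, 0.716, 0.233 and 0.0494 CPM. Those groups overlapped, and leaving out any of TG replicates 1, 3 and 4 or siCTRL replicate 4 raised its adjusted p to between 0.0552 and 0.0778. In LNCaP NNMT passed the filter on low counts only through libraries without TG, which favoured such a call, so this is a description. ACSL3, a fatty acyl-CoA ligase, and GNMT, a glycine methyltransferase, were called in neither line. Of the traffic and ubiquitin group, RAB3B, a small GTPase of secretory vesicles, was called lower in both lines. In C4-2B it went from 103, 135, 89.6 and 86.3 CPM to 50.1, 50.0, 93.2 and 50.7 CPM, overlapping through TG replicate 3. LNCaP cells went from 82.9, 96.6, 73.9 and 95.1 CPM to 47.7, 49.6, 52.4 and 64.8 CPM. The adjusted p was 0.00879 and 0.0157, and the LNCaP call was lost without any of TG replicates 1, 2 and 3 (adjusted p from 0.0562 to 0.0707).

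ABTB2, a BTB-domain protein, rose with TG in both lines. It went from 28.6, 35.1, 35.3 and 35.5 CPM to 44.7, 51.0, 45.1 and 42.4 CPM in C4-2B (adjusted p = 0.0109), a call lost without the GC-linked libraries (adjusted p = 0.0906). In LNCaP it went from 10.6, 11.4, 11.7 and 9.96 CPM to 24.3, 20.8, 19.7 and 24.1 CPM (adjusted p = 5.84e-06). Neither line showed overlap. C1orf116, also named specifically androgen-regulated gene, was called lower in LNCaP (log2 -0.52, adjusted p = 0.000527) and not in C4-2B (log2 -0.24, adjusted p = 0.101). TPD52, a vesicle traffic protein, and HERC3, a ubiquitin ligase, were called in neither, with log2 changes between -0.14 and 0.33. PART1, a prostate noncoding RNA, was called lower in C4-2B, from 5.47, 4.43, 4.40 and 5.70 CPM to 3.46, 2.68, 2.597 and 2.6001 CPM (adjusted p = 0.0153), without overlap. That call was lost without siCTRL replicate 4 (adjusted p = 0.0533). In LNCaP its log2 change was -0.11 (adjusted p = 0.645).

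With TG, a wider list of 82 androgen-induced genes that holds none of the 39 members had calls in both directions. Of its 78 tested genes, 25 (32.1%) were called lower and 19 (24.4%) higher in C4-2B, where 19.3% and 21.2% of all genes were. In LNCaP 31 (39.7%) were called lower and 24 (30.8%) higher, where 25.1% and 24.6% of all genes were. The list's median log2 change was -0.21 and -0.19. DNAJB9, an ER chaperone on that list and on the ER stress list, rose by 2.27 and 2.68. Of the androgen-repressed genes tested, 2 of 8 were called lower and 3 higher in C4-2B, and 3 of 9 lower and 1 higher in LNCaP.

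Markers of other cells moved with TG as well. The summed level of 11 blood, stromal and endothelial markers was 4.48 to 9.21 CPM in C4-2B siCTRL libraries and 13.1 to 21.0 CPM with TG, and 6.17 to 7.87 and 12.4 to 16.1 CPM in LNCaP. CD3E, COL1A2 and CDH5 were at 0 in all of these libraries, but of the 3 tested genes of the list 2 were called higher in each line. Of all genes, 21.2% were called higher in C4-2B and 24.6% in LNCaP. VWF, the clotting factor of endothelial cells, rose by 2.30 and 1.37 (adjusted p = 1.87e-06 in C4-2B, 4.02e-05 in LNCaP), and COL1A1, a collagen chain, by 1.11 (adjusted p = 0.00511) and 1.02 (adjusted p = 0.000184) on the log2 scale. Of 4 tested basal and mesenchymal markers, 2 were called higher in each line, beside the same shares of all genes. TP63 was at 0 in the siCTRL libraries without TG and at 1.02 to 1.197 CPM in C4-2B and 0.407 to 0.755 CPM in LNCaP with it, and ZEB1 rose by 1.90 (adjusted p = 0.00373) and 1.97 (adjusted p = 0.0119). ZEB1 averaged 0.299 CPM in C4-2B and 0.217 CPM in LNCaP siCTRL cells without TG. TP63 and ZEB1 passed the filter on low counts only through libraries with TG, which favoured such calls, so these are a description. The sum of the basal and mesenchymal list with TG was 223 to 429 CPM and 288 to 420.4 CPM. The neuroendocrine markers summed to 5.58 to 7.71 CPM without and 8.71 to 13.6 CPM with TG in C4-2B, where SCG3 (log2 3.48, adjusted p = 0.00141) and SYP (log2 1.16, adjusted p = 0.0279) were called higher. SCG3 averaged 0.0443 CPM there without TG and likewise passed the filter only through libraries with TG. In LNCaP the neuroendocrine markers summed to 13.4 to 15.6 and 7.95 to 11.9 CPM, and ENO2 was called lower (log2 -0.89, adjusted p = 2.63e-05). The luminal markers, some of which are androgen-induced, summed to 2555 to 3295 CPM and 1888 to 2247 CPM in C4-2B and to 3213 to 3867 CPM and 2278 to 2504 CPM in LNCaP. The part of these shifts in the members' changes was not tested.

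The TG response of a member was called different between the lines in few cases. Tested as LNCaP minus C4-2B in 1 fit of all libraries, the difference was called positive for 1 member, ADAMTS1, and negative for 2, TMPRSS2 and OR51E2, against 0.417% and 0.431% of all genes. For ADAMTS1 the fall was smaller in LNCaP by 1.18 on the log2 scale (SE 0.16, adjusted p = 0.000161). For TMPRSS2 it was greater in LNCaP, with a difference of -0.95 (SE 0.16, adjusted p = 0.00235). OR51E2 differed by -2.57 (SE 0.55, adjusted p = 0.0136), a value that rests on the few C4-2B counts given above and on that filter, and it was not called without the GC-linked libraries (adjusted p = 0.0766). For PMEPA1 the difference was -1.08 (adjusted p = 0.159), and for KLK3 -0.63 with a 95% interval of -1.17 to -0.09 (adjusted p = 0.386). At an unadjusted p under 0.05 in edgeR there were 3 positive and 9 negative members. On simulated data this test called 29.9% of differences of 1 on the log2 scale, and 13.9% of its calls were of unchanged genes. A missing call therefore does not show an equal response.

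**Figure D3:**
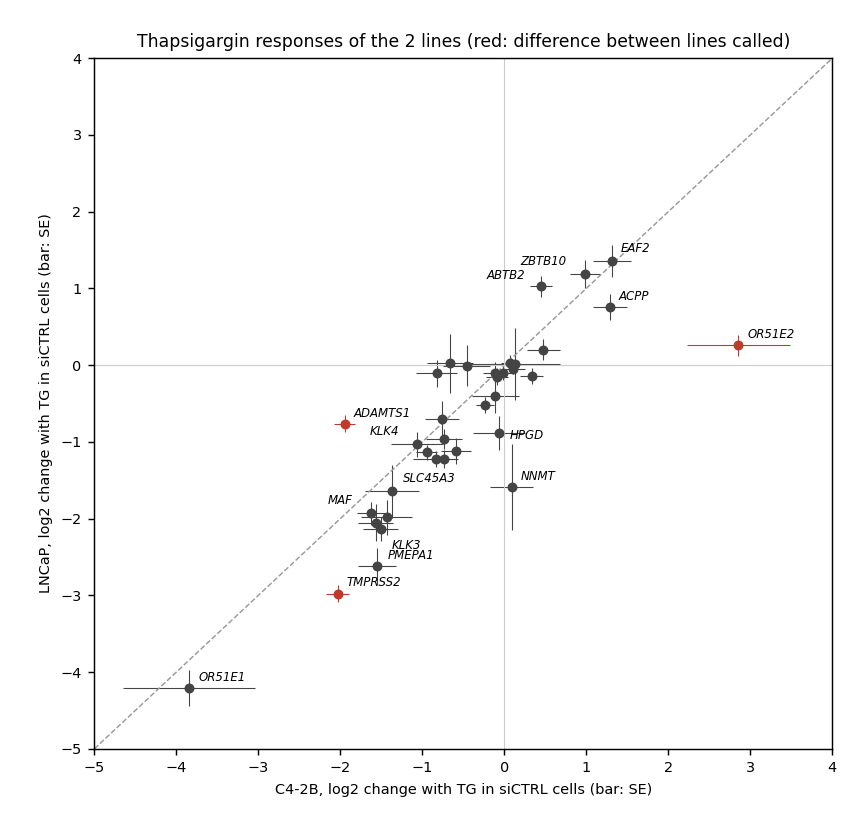
Log2 change with TG in siCTRL cells of C4-2B (x axis) and LNCaP (y axis) for the 36 tested members, with standard errors as bars; the diagonal marks equal change and red points are members whose response differed between the lines. ADAMTS1 lies above the diagonal at -1.95 and -0.76, TMPRSS2 below it at -2.03 and -2.98.

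TG was also compared in the knockdown cells, which are other libraries than those above. In C4-2B, 19 members were called lower and 4 higher, against 17.2% and 20.7% of all genes, and in LNCaP 18 lower and 5 higher, against 21.9% and 25.1%. Lower in both lines were 18 members, and ACPP, OR51E2, EAF2 and ZBTB10 were higher in both, against 14.3% and 17.9% of the genes tested in both lines. In C4-2B, OR51E1 among the lower and OR51E2 among the higher again passed the filter only through the drug condition where they were high. That favoured such calls, so the C4-2B calls of OR51E1 and OR51E2 are a description. KLK3 in siMOCOS cells went from 87.6, 93.5, 145 and 166 CPM to 35.9, 29.3, 40.3 and 31.9 CPM in C4-2B and from 1325, 1278, 2157 and 1831 CPM to 351, 335, 404 and 319 CPM in LNCaP. It fell 3.58-fold (adjusted p = 3.85e-06) and 4.67-fold (adjusted p = 2.96e-09) with no overlap. TMPRSS2 fell from 604, 728, 911 and 939.7 CPM to 133, 153, 109 and 128 CPM in C4-2B and from 729, 723, 936 and 906 CPM to 105, 105, 119 and 111 CPM in LNCaP, or 6.08-fold and 7.49-fold. KLK15 was called lower in C4-2B (log2 -1.08, adjusted p = 0.00589) and LNCaP (log2 -1.02, adjusted p = 0.0271), the latter lost when any of 5 single libraries was left out (adjusted p from 0.0550 to 0.0828).

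The interaction, that is how far the knockdown effect under TG exceeds that under vehicle, was called for 1 member in C4-2B. ADAMTS1 had an interaction of 1.05 (SE 0.18, adjusted p = 0.0459), where 0.0283% of all genes were called positive and 0.0425% negative. In siMOCOS cells ADAMTS1 went from 189, 200.5, 233 and 231 CPM to 126, 126, 101 and 106 CPM with TG, so it fell by 0.89 there and by 1.95 in siCTRL cells. The call was lost when any of 11 single libraries was left out (adjusted p from 0.0675 to 0.122) and without the GC-linked libraries (adjusted p = 0.0900). No member was called negative in C4-2B, and none in either direction in LNCaP, by edgeR, DESeq2 or limma voom, with backgrounds of 0.00724% and 0%. At an unadjusted p under 0.05 there were 3 negative in C4-2B, and 2 positive and 1 negative in LNCaP. For NNMT in C4-2B the interaction was -1.75 (SE 0.38, adjusted p = 0.102).

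Knockdown of MOCOS without TG left more members called higher than lower in both lines, while the 3 kallikreins KLK2, KLK3 and KLK4 were not called. In C4-2B, 15 members were called higher and 0 lower, against 9.09% and 8.14% of all genes, and the median log2 change was 0.41. The higher calls were 6 of 12 surface members, 3 of 5 in the traffic and ubiquitin group, 2 of 4 metabolic enzymes, 1 of 4 signalling genes, 1 of 4 transcription regulators, 1 of 6 secreted proteins and PART1. The 0 was the same by DESeq2 and limma voom, and 2 members were lower at an unadjusted p under 0.05. In LNCaP, 7 were called higher and 2 lower, against 6% and 9.73% of all genes, with a median of 0.15. Higher calls were above the background share in both lines, and lower calls below it. Without the GC-linked libraries, 10 were called higher in C4-2B, and PMEPA1, RAB3B, SLC45A3, PART1 and NNMT were not (adjusted p from 0.0661 to 0.208). Called higher in both lines were TMPRSS2, ABCC4, MAF, HERC3 and PART1, where 2.94% of the genes tested in both lines were. The siCTRL libraries are the same ones as in the TG comparison, so the effects of TG and of knockdown share their controls.

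HERC3, a HECT-type ubiquitin ligase, was among the members called higher in both lines. It stood at 103, 101, 93.7 and 84.01 CPM in C4-2B siCTRL and at 276, 288, 215 and 194 CPM in siMOCOS. In LNCaP it stood at 281, 237, 267 and 249.8 CPM and at 503, 473, 349 and 386 CPM. No knockdown library fell in the range of its controls, and HERC3 rose 2.55-fold (adjusted p = 2.87e-06) and 1.65-fold (adjusted p = 0.000208). MAF rose to 176, 173, 128 and 135 CPM in C4-2B and to 80.5, 71.8, 74.0 and 61.9 CPM in LNCaP, against the control values above, again with no overlap. Its rises were 2.13-fold (adjusted p = 0.000192) and 1.89-fold (adjusted p = 0.000275). The ABCC4 call in LNCaP (adjusted p = 0.0368) was lost without any of 6 single libraries (adjusted p from 0.0588 to 0.0917). TMPRSS2 rose 2.05-fold in C4-2B (adjusted p = 3.43e-05) and 1.43-fold in LNCaP (adjusted p = 0.00247), its 8 knockdown libraries all above the controls of their line. PART1 rose to 9.64, 9.88, 7.08 and 7.54 CPM in C4-2B (adjusted p = 0.0376) and to 8.18, 7.87, 7.92 and 6.80 CPM in LNCaP, from 5.21, 4.80, 4.79 and 4.23 CPM (adjusted p = 0.0119). The C4-2B call of PART1 was lost without any of siCTRL replicates 1, 2 and 3 or siMOCOS columns 1 and 2 (adjusted p from 0.0569 to 0.104).

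In C4-2B and not in LNCaP, 10 members were called higher. ACPP went to 55.4, 58.0, 30.7 and 29.4 CPM in C4-2B siMOCOS, all above its controls, a 2.28-fold rise (adjusted p = 0.000548). In LNCaP siMOCOS it held 180.1, 169, 112 and 112 CPM, overlapping its controls (log2 -0.05, adjusted p = 0.852). The difference between the lines was -1.23 on the log2 scale (adjusted p = 0.0589) and missed the threshold. STEAP2 went from 463, 596, 417 and 386 CPM to 778, 819, 779 and 817 CPM in C4-2B, a 1.71-fold rise (adjusted p = 0.000529). The LNCaP libraries went from 1319, 1127, 1206 and 1462 CPM to 1214, 1116, 1085 and 1245 CPM, with overlap (log2 -0.13, adjusted p = 0.455). STEAP1, its relative among metalloreductases, rose from 134 ± 30.9 to 226 ± 4.02 CPM in C4-2B (adjusted p = 0.00133), and had a log2 change of 0.03 in LNCaP. TMEFF2 rose to 13.8, 15.05, 30.4 and 31.3 CPM in C4-2B (2.48-fold, adjusted p = 0.00231), and in LNCaP it held 204, 199, 239.6 and 249.004 CPM (log2 0.20, adjusted p = 0.204).

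RAB3B rose in C4-2B to 233, 251, 158 and 171 CPM, above every control (1.96-fold, adjusted p = 0.00387). The RAB3B call was lost with only knockdown columns 3 and 4 (log2 0.69, adjusted p = 0.0730) and without the GC-linked libraries (adjusted p = 0.0721). HPGD rose from 1.21 ± 0.560 to 4.17 ± 0.852 CPM (adjusted p = 0.000497). C1orf116 rose from 484 ± 40.8 to 720.3 ± 49.4 CPM (adjusted p = 0.00151). The rises of PMEPA1 (adjusted p = 0.021), SLC45A3 (0.0376) and NNMT (0.0481) were less firm, since each call was lost when any of several single libraries was left out, with adjusted p up to 0.0715, 0.141 and 0.149. In LNCaP alone, TRPM8 (from 31.02 ± 3.16 to 41.4 ± 1.86 CPM, adjusted p = 0.0176) and ABTB2 (to 13.997, 14.2, 18.4 and 17.0 CPM, adjusted p = 0.0121) were called higher. The TRPM8 call was lost without siCTRL replicate 2 (adjusted p = 0.0615). OR51E1 fell in LNCaP to 19.3, 17.0, 29.1 and 37.0 CPM, 1.92-fold below its controls with no overlap (adjusted p = 0.00351). FKBP5 fell there to 201, 169, 188 and 195 CPM, also without overlap (1.54-fold, adjusted p = 0.0029). In C4-2B FKBP5 held 388, 393, 433 and 408 CPM, all below its controls, with a log2 change of -0.40 that was not called (adjusted p = 0.227).

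The difference in knockdown response between the lines was called positive for 1 member, ABTB2, and negative for 1, STEAP2, against 0.0205% and 0.137% of all genes. STEAP2 differed by -0.90 (SE 0.18, adjusted p = 0.0195), a call lost without any of 4 single libraries (adjusted p from 0.0654 to 0.0733). ABTB2 differed by 0.83 (SE 0.18, adjusted p = 0.0387). It stood at 23.6, 26.5, 31.6 and 29.2 CPM in C4-2B siMOCOS, overlapping its controls, and its call was lost without any of 11 single libraries (adjusted p from 0.0525 to 0.106). For TMPRSS2 the difference was -0.51 with a 95% interval of -0.84 to -0.18 (adjusted p = 0.205).

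With TG present, knockdown again left more members higher than lower. In C4-2B, 17 were called higher and 3 lower, against 9.21% and 7.6% of all genes, and in LNCaP 10 higher and 1 lower, against 11.7% and 10.2%. The 3 lower calls in C4-2B are near the background share. Without the GC-linked libraries 13 and 8 were called higher. Higher in both lines were ADAMTS1, TMPRSS2, TMEFF2, PMEPA1, MAF, HPGD, RAB3B and HERC3, and FKBP5 was lower in both. Of the genes tested in both lines, 3.84% were higher and 4.81% lower in both. FKBP5 went to 118, 103, 239.8 and 235 CPM in C4-2B and to 71.7, 72.4, 107 and 110.4 CPM in LNCaP. These lay below every siCTRL TG library of the line, a 1.85-fold fall (adjusted p = 0.00884) and a 1.64-fold fall (adjusted p = 0.000729). MAF rose to 92.7, 90.6, 62.6 and 54.7 CPM in C4-2B and to 33.7, 32.2, 21.7 and 24.1 CPM in LNCaP, 3.23-fold (adjusted p = 2.57e-06) and 2.8-fold (adjusted p = 3.37e-06) over the TG controls. HERC3 rose 2.4-fold (adjusted p = 6.2e-06) and 1.85-fold (adjusted p = 2.24e-05). The other lower calls in C4-2B were ABTB2, at 28.1, 34.4, 30.6 and 36.5 CPM (adjusted p = 0.0121), and NNMT, at 0.448, 0.366, 0.545 and 0.561 CPM (adjusted p = 0.0179), both below every TG control. The NNMT call was lost without siMOCOS TG column 2 (adjusted p = 0.0502).

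RAB3B rose to 171, 159, 156 and 134 CPM in C4-2B and to 122, 145, 80.6 and 87.2 CPM in LNCaP, above every TG control (adjusted p = 0.000237 and 0.00417). PMEPA1 rose to 35.8, 35.9, 54.8 and 66.7 CPM and to 18.1, 17.8, 25.6 and 26.8 CPM, 2.19-fold (adjusted p = 0.00226) and 2.05-fold (adjusted p = 0.0044). ADAMTS1 rose 1.73-fold in C4-2B (adjusted p = 0.000218) and to 286, 339, 243 and 238 CPM, 1.41-fold, in LNCaP (adjusted p = 0.00496). TMPRSS2 rose 1.38-fold in C4-2B (adjusted p = 0.0255), a call lost without siCTRL TG replicate 1 or 4 or siMOCOS TG column 1 or 2 (adjusted p from 0.0637 to 0.0983), and 1.5-fold in LNCaP (adjusted p = 0.000742). Among members called higher in C4-2B only, ACPP reached 102, 96.6, 81.0 and 73.2 CPM (1.9-fold, adjusted p = 0.0036) and STEAP2 789, 695, 886 and 804 CPM (1.81-fold, adjusted p = 0.0002). The calls of C1orf116 (adjusted p = 0.0455) and OR51E2 (0.039) in C4-2B and of TRPM8 (0.0458) and NDRG1 (0.0457) in LNCaP were each lost without any of 7 or more single libraries, with adjusted p up to 0.136, 0.102, 0.186 and 0.195. The kallikreins KLK2, KLK3 and KLK4 were again not called, with log2 changes between -0.48 and 0.12.

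The blood, stromal and endothelial sum was also higher in knockdown cells, at 10.4 to 12.8 CPM in C4-2B and 9.66 to 14.8 CPM in LNCaP without TG, and at 19.4 to 28.6 and 19.9 to 25.9 CPM with TG. COL1A2 was at 0 in all of them. The luminal sum in knockdown cells was 3496 to 3849.8 CPM in C4-2B, above every control, and 3389 to 3823 CPM in LNCaP, overlapping them. With TG it was 2416 to 3093 CPM and 2615 to 2993 CPM, above every siCTRL TG library of the line. Of the 78 tested genes of the wider androgen-induced list, 14 (17.9%) were called higher and 9 (11.5%) lower in C4-2B without TG, where 9.09% and 8.14% of all genes were. In LNCaP 9 (11.5%) were called higher and 11 (14.1%) lower, where 6% and 9.73% of all genes were. The part of these shifts in the members' changes was not tested.

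For several members, chosen here after their values were seen, knockdown columns 1 and 2 lay near each other and apart from columns 3 and 4. The difference between the pairs of columns was not tested, here or in the paragraphs that follow. A call with 1 pair and none with the other therefore does not show that the pairs differ. Each fit with 1 pair kept 2 knockdown libraries of the group compared. Its adjusted p-values do not allow for the choice of members. In C4-2B siMOCOS the rank correlation with GC content was -0.428 and -0.291 in columns 1 and 2 and 0.393 and 0.337 in columns 3 and 4. In LNCaP siMOCOS it was -0.441, 0.132, 0.355 and -0.00634. The part of GC content in the split was not tested. ELL2, an elongation factor of the super elongation complex, is described first. In C4-2B siMOCOS it stood at 307, 304, 68.8 and 55.4 CPM, where the controls held 90.6, 92.99, 74.1 and 79.4 CPM. In LNCaP it stood at 211, 197, 49.8 and 49.1 CPM against 64.7, 66.1, 64.2 and 63.4 CPM. With TG the columns held 267, 263, 54.0 and 43.3 CPM in C4-2B and 169, 171, 43.7 and 43.6 CPM in LNCaP. Columns 1 and 2 lay above and columns 3 and 4 below the controls in all 4 cases, and with 4 columns pooled ELL2 was not called (log2 1.13, SE 0.56, adjusted p = 0.188 in C4-2B). With only columns 1 and 2 in the fit its log2 change was 1.87 for C4-2B (adjusted p = 0.0166) and 1.66 for LNCaP (adjusted p = 0.0127). With only columns 3 and 4 it was -0.42 (adjusted p = 0.721) and -0.39 (adjusted p = 0.617). Whether the pairs of columns are the 2 siRNAs cannot be read from the column names.

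SLC45A3 had the opposite order, at 70.6, 69.7, 162 and 195 CPM in C4-2B siMOCOS and 81.6, 73.2, 239.7 and 229.7 CPM in LNCaP siMOCOS. Its log2 change was 0.19 with columns 1 and 2 (adjusted p = 0.663) and 1.55 with columns 3 and 4 (adjusted p = 0.00168) in C4-2B, and -0.56 (0.17) and 1.04 (0.0122) in LNCaP. KLK2 stood at 61.8, 75.9, 176 and 194 CPM in C4-2B siMOCOS and 70.1, 75.3, 149 and 136 CPM in LNCaP siMOCOS, so its pooled value hid columns on both sides. In C4-2B its siCTRL libraries had the same order, with 89.9 and 79.5 CPM in 1 and 2 and 132 and 137 CPM in 3 and 4. In LNCaP the log2 change of KLK2 was -0.66 with columns 1 and 2 (adjusted p = 0.0276) and 0.31 with columns 3 and 4 (adjusted p = 0.293). KLK4 held 98.2, 109.6, 267 and 246 CPM in C4-2B siMOCOS, but its siCTRL libraries 1 and 2 were also below 3 and 4. PMEPA1 held 80.6, 77.4, 147 and 145 CPM in C4-2B siMOCOS and 75.5, 66.9, 132 and 130.2 CPM in LNCaP siMOCOS, with log2 changes of 0.30 and 1.198 in C4-2B and 0.10 and 0.98 in LNCaP. The second value of each pair was called (adjusted p = 0.00126 and 0.00405).

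With TG, CAMKK2 held 35.7, 33.1, 55.3 and 59.2 CPM in C4-2B knockdown cells and 19.3, 17.4, 42.7 and 44.2 CPM in LNCaP knockdown cells. With columns 1 and 2 it was called lower in both lines, at -0.72 (adjusted p = 0.0259) and -1.18 (adjusted p = 4.38e-05), and with columns 3 and 4 its log2 change was 0.00 and 0.07. BMPR1B held 5.77, 3.396, 10.5 and 10.1 CPM and 48.5, 53.5, 114 and 102 CPM there, with -1.08 and -1.09 in columns 1 and 2 (adjusted p = 0.0131 and 8.16e-05). RAB3B in LNCaP siMOCOS held 187, 167, 86.7 and 96.9 CPM, and the log2 change was 1.02 with columns 1 and 2 (adjusted p = 0.00276) and 0.07 with columns 3 and 4 (adjusted p = 0.853). HERC3 and MAF were called higher with either pair of columns in both lines, with and without TG. STEAP2 was called higher with either pair in C4-2B, at 0.79 and 0.80 without TG. In C4-2B without TG, SLC45A3, PMEPA1, TMEFF2 and NNMT were not called with only columns 1 and 2 (adjusted p from 0.0527 to 0.663), and PART1, RAB3B and NNMT not with only columns 3 and 4 (adjusted p from 0.0730 to 0.262). The LNCaP calls of TRPM8, ABTB2 and ABCC4 were lost with columns 1 and 2 (adjusted p from 0.0796 to 0.201), and that of PART1 with columns 3 and 4 (adjusted p = 0.0762). With TG in C4-2B, the calls lost were those of ABCC4, C1orf116, SLC45A3 and OR51E2 with columns 1 and 2 (adjusted p from 0.215 to 0.345) and of ACPP, TMPRSS2, ABTB2, NNMT and PART1 with columns 3 and 4 (adjusted p from 0.0557 to 0.417). With TG in LNCaP, they were those of TMEFF2, NDRG1 and TRPM8 with columns 1 and 2 (adjusted p from 0.0709 to 0.0946) and of RAB3B, ADAMTS1, HPGD, NDRG1 and TRPM8 with columns 3 and 4 (adjusted p from 0.0708 to 0.2700).

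**Figure D4:**
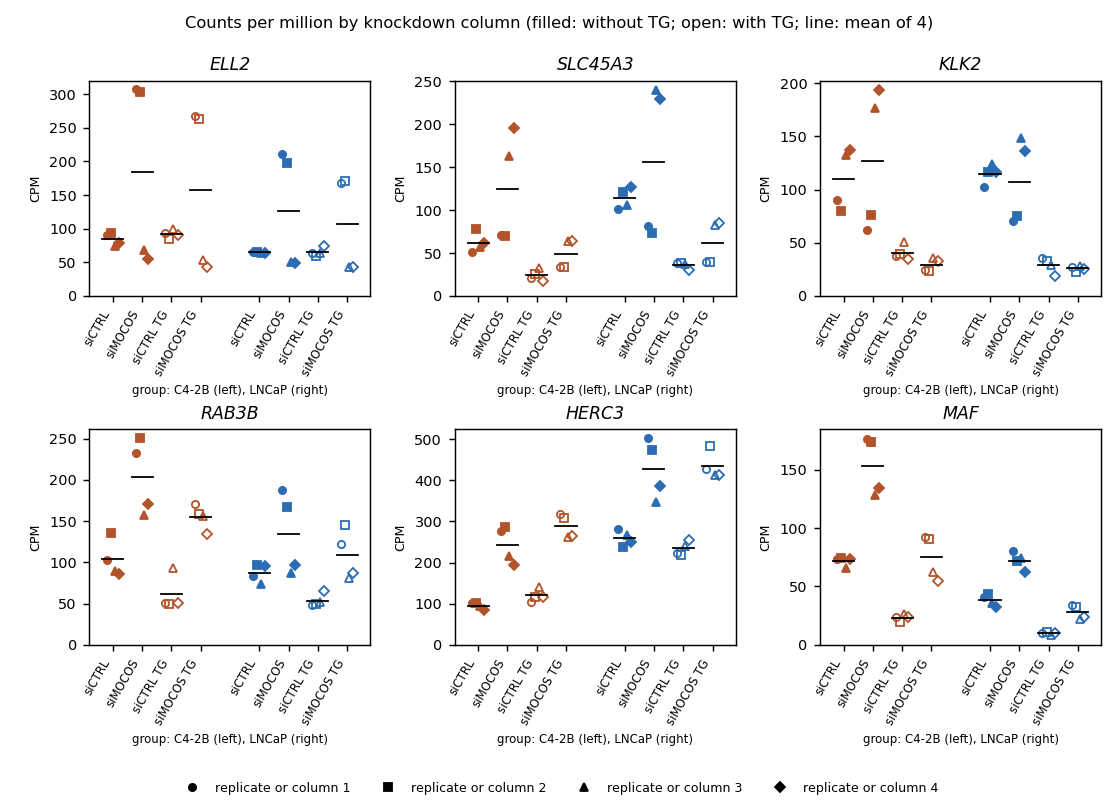
Levels of ELL2, SLC45A3, KLK2, RAB3B, HERC3 and MAF by library in CPM, with siCTRL replicates and siMOCOS columns 1 to 4 in each line, without and with TG. For ELL2 columns 1 and 2 lie above the controls and columns 3 and 4 below them, from 307 to 55.4 CPM in C4-2B without TG, while all columns of HERC3 and MAF lie above.

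Between the lines, siCTRL cells without TG differed in 25 members. In LNCaP, 17 were called higher and 8 lower than in C4-2B, where 21.1% and 20.1% of all genes were called, so the higher count was above the background share and the lower count near it. Levels are scaled within each line, and the fold changes and tests come from the fit of both lines together. OR51E2, OR51E1, TMEFF2, BMPR1B, KLK3 and ACPP differed most. OR51E2 was at 113 to 172 CPM in LNCaP and at most 0.349 CPM in C4-2B, with a log2 difference of 9.77 that depends on the prior count (adjusted p = 1.68e-19). OR51E1 was 66.6-fold higher in LNCaP (adjusted p = 4.59e-14), from libraries of at least 41.8 CPM against at most 0.975 CPM. TMEFF2 was 23.5-fold higher (log2 4.55, SE 0.23, adjusted p = 5.17e-16), at 188 to 201 CPM against 7.003 to 11.1 CPM. BMPR1B stood at 149, 128, 124 and 161 CPM in LNCaP and 10.7, 11.97, 10.2 and 8.96 CPM in C4-2B, 14.8-fold apart (adjusted p = 2.85e-12).

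KLK3 was 14.2-fold higher in LNCaP (log2 3.82, SE 0.21, adjusted p = 2.69e-15) and ACPP 8.65-fold (log2 3.11, SE 0.21, adjusted p = 3.58e-13). KLK2 and KLK4 did not follow, with log2 differences of 0.21 (95% interval -0.36 to 0.78) and -0.18 (95% interval -0.72 to 0.37) and overlapping libraries. STEAP2 and HERC3 were 3.04-fold (adjusted p = 1.57e-11) and 3-fold (adjusted p = 2.76e-11) higher in LNCaP, and STEAP1, TRPM8 and ABCC4 2.33-fold, 2.34-fold and 2.4-fold. TMPRSS2 was 1.64-fold higher (adjusted p = 1.02e-05) and ADAMTS1 1.44-fold (adjusted p = 0.00058). Lower in LNCaP were KLK15 (3.72-fold, adjusted p = 2.21e-05), ABTB2 (2.78-fold, adjusted p = 9.35e-11), NDRG1 (2.12-fold, adjusted p = 2.73e-09), MAF (1.7-fold, adjusted p = 0.000306) and FKBP5 (1.68-fold, adjusted p = 0.00197). The calls of FOLH1, SLC45A3, LIFR, ZBTB10 and ACSL3 were each lost in at least 1 fit that left out a single library, with adjusted p up to 0.0609, 0.0568, 0.131, 0.118 and 0.102.

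**Figure D5:**
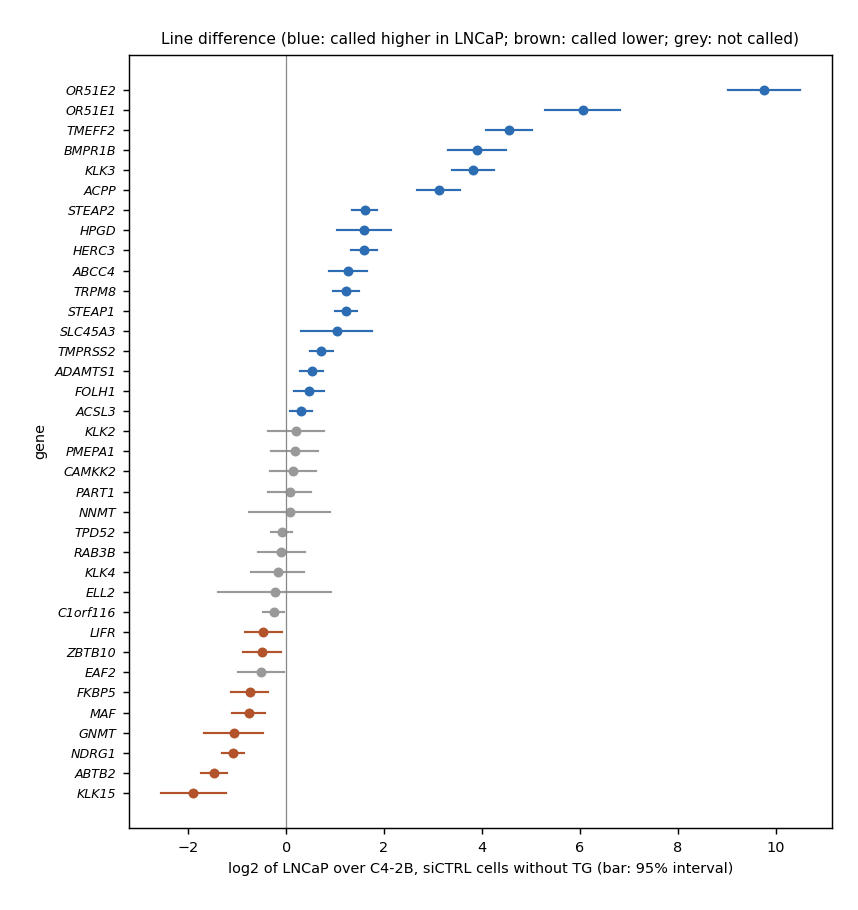
Log2 difference of LNCaP over C4-2B in siCTRL cells without TG for each tested member, with 95% intervals. OR51E2 (9.77), OR51E1 (6.06), TMEFF2 (4.55), BMPR1B (3.89), KLK3 (3.82) and ACPP (3.11) stand apart at the top, and KLK15 (-1.90) and ABTB2 (-1.48) at the bottom.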

How the data were processed

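PolyA RNA from 32 strand-specific libraries of LNCaP and C4-2B cells was analysed in 8 groups of 4. The authors deposited 1 table of 29744 genes of expected counts (length-scaled estimates for each gene), not divided by library size. Per the submitters' processing notes, Salmon 1.5.2, STAR 2.6.1d, FastQC 0.11.9, cutadapt 3.4 and Trim Galore 0.6.7 were used with hg38, and the annotation is not given in the sources used here. Of the values above 0, 100% were not whole and were rounded.

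The lines were fitted separately in edgeR 4.0.16 (R 4.3.3, filterByExpr, TMM, estimateDisp, glmQLFit, glmQLFTest), with 12 residual degrees of freedom and 14127 genes in C4-2B and 13806 in LNCaP. Line differences came from 1 fit of 32 libraries (14628 genes, 24 residual degrees of freedom). Calls are at a Benjamini-Hochberg adjusted p under 0.05 over all genes. SE is the unshrunken log2 change over the square root of F, and the 95% interval uses it. P-values pool libraries of 2 siRNAs. The groups of a fit share 1 estimate of spread, so the SE and p-value of TG in siCTRL cells also take in the knockdown columns.

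The members and lists were chosen with earlier results of these data known. Levels by library are given for KLK2, KLK3, KLK4, ACPP, TMPRSS2, FOLH1, SLC45A3, FKBP5 and NDRG1 and for the called members of at least 5 CPM with the largest absolute log2 change, 6 for TG in siCTRL cells of each line and 4 in each other comparison. OR51E1 and OR51E2 in C4-2B, NNMT and ELL2 were added after their values were seen. From other lists the text names up to 2 called genes per list with the smallest adjusted p; some genes are not reported here. Alternatives were DESeq2 1.42.0, limma voom (limma 3.58.1), DESeq2 size factors, library totals, no filter, 1 fit of all libraries, either pair of knockdown columns, each library left out, a replicate block and, chosen after seeing the data, leaving the 4 GC-linked libraries out. The fit was tested on simulated data. Replicate libraries differed by more than sampling noise, with a chi-square per degree of freedom of at least 5.19. Same-numbered siCTRL libraries with and without TG did not deviate together (correlations from -0.371 to 0.236).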

Additional observations from a re-analysis of the deposited data

Results flagged for a closer look

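Of 176 pairs of a named member and a group of 4 libraries, 12 held a library whose gap to the nearest of the others, over the range of the group, was above Dixon's critical value for 4. Chance alone gives that in about 5% of groups. In C4-2B siCTRL TG replicate 3, ADAMTS1 was the highest at 77.2 CPM (the others 61.98 to 63.9), STEAP2 at 527 CPM (400.2 to 413) and RAB3B at 93.2 CPM (50.0 to 50.7), and TMEFF2 the lowest at 3.84 CPM (5.44 to 5.64). In C4-2B siCTRL replicate 1, FOLH1 was the highest at 1213 CPM (926 to 970.1), and NDRG1 at 171 CPM (229 to 233) and ABTB2 at 28.6 CPM (35.1 to 35.5) were the lowest. MAF was lowest in C4-2B siCTRL replicate 3 at 66.1 CPM (73.4 to 74.0). PART1 was highest in C4-2B siCTRL TG replicate 1 at 3.46 CPM (2.597 to 2.68). In LNCaP, SLC45A3 was lowest in siCTRL TG replicate 4 at 30.8 CPM (37.7 to 38.9), OR51E2 highest in siCTRL replicate 4 at 172 CPM (113 to 122), and NDRG1 highest in siMOCOS TG column 1 at 55.5 CPM (49.7 to 50.5).

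By a test of the difference itself, the knockdown effect on ADAMTS1 in C4-2B differed between TG and vehicle by 1.05 on the log2 scale. Between LNCaP and C4-2B the TG response differed for ADAMTS1 by 1.18, for TMPRSS2 by -0.95 and for OR51E2 by -2.57. The OR51E2 value rests on a C4-2B level of at most 0.349 CPM without TG, in a line where the gene passed the filter only through libraries with TG, and was not called without the GC-linked libraries (adjusted p = 0.0766). The knockdown response without TG differed for STEAP2 by -0.90 and for ABTB2 by 0.83.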

How the results depend on the processing

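Of 468 results of a member in a comparison, 177 were called, 133 of them under every alternative run, and 44 lost the call in at least 1. Another 50 gained a call in at least 1, and none changed sign while called. Member counts moved by more than 1.5 times only where the count was small, as follows. With only knockdown columns 1 and 2, the knockdown with TG gave 6 members lower in C4-2B (1 with only columns 3 and 4) and 5 lower in LNCaP. Leaving out single libraries gave 1 to 2 lower in LNCaP with TG. The positive interaction in C4-2B gave 0 without the GC-linked libraries and 0 to 1 without single libraries. DESeq2 gave 2 positive differences in TG response between the lines. For the knockdown response, positive differences were 0 under limma voom, library totals, no filter and without the GC-linked libraries, and 0 to 1 without single libraries. Negative ones were 5 under DESeq2, 2 under limma voom, 3 with library totals and 0 to 3 without single libraries. The cause was not tested. With the replicate block, TG in siCTRL cells gave 17 lower and 5 higher in C4-2B and 19 lower and 4 higher in LNCaP, as without the paired term. Members near or below 1 CPM (NNMT, KLK15 in LNCaP, OR51E1 and OR51E2 in C4-2B) rest on few counts.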
